A study of Homo sapiens with 12 samples.

Results

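The genes described here are the 37 genes of the human mitochondrial genome, measured by RNA-seq in 12 libraries of HUDEP-2, a human erythroid precursor line that grows without limit in culture. They were chosen by gene name, as the count rows for the 13 mitochondrial mRNAs, 2 rRNAs and 22 tRNAs, with earlier results of these data known. They are 37 of the 54628 genes in the count table. All cells carried dCas9-KRAB, a transcriptional repressor fused to inactive Cas9, delivered by lentivirus, together with either a scrambled guide RNA (sgControl) or a guide to a regulatory element upstream of EGR1 (sgEGR1), and were deprived of growth factors for 5 h. PBS or 50 ng/mL stem cell factor (SCF), the ligand of the Kit receptor, was then given for 1 h, giving 4 groups (sgControl PBS, sgControl SCF, sgEGR1 PBS and sgEGR1 SCF) of 3 replicates each. The comparisons asked how acute Kit activation changed transcript levels and whether repression of the EGR1 element altered that response.

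Mitochondrial DNA is a small circular genome that is transcribed from both of its strands as long precursor RNAs. Most genes lie on the transcript of the heavy strand, and tRNA genes that sit between the longer genes mark where the precursors are cut into single RNAs. The mRNAs encode core subunits of the respiratory chain and of ATP synthase, and the rRNAs form the core of the mitochondrial ribosome. All other mitochondrial proteins, among them the factors that copy, transcribe and process the mitochondrial genome, are encoded in the nucleus, and erythroid precursors depend on mitochondria for heme and iron-sulfur cluster synthesis.

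The sequences shown here are those on which the counts of neighbouring genes turn. ATP8 and ATP6, subunits of ATP synthase, are read from overlapping frames of 1 RNA and share 46 bases, which are in capitals in the ATP8 gene below (hg38 chrM:8366-8572, plus strand). ND4L and ND4, subunits of complex I, share 7 bases, in capitals within their junction (hg38 chrM:10730-10796, plus strand). The authors' counting had to assign a read from such a junction to either gene or to both, so the values of the genes in each pair are not independent.
ATP8: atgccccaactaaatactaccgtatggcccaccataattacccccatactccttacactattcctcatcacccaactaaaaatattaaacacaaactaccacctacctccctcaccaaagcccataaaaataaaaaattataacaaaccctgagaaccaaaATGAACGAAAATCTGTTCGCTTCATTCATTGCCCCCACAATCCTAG
ND4L-ND4 junction: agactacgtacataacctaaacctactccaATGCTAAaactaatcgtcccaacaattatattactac

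The tRNA genes span 59 to 75 bases, and their anticodons, which read the codon in the ribosome, are in capitals in the following genes, written 5′ to 3′ on the strand of the RNA. TRND (chrM:7518-7585, plus strand), TRNP (chrM:15956-16023, minus strand), TRNC (chrM:5761-5826, minus strand) and TRNI (chrM:4263-4331, plus strand) carry aspartate, proline, cysteine and isoleucine. TRND and TRNP were called lower after SCF in sgControl cells. TRNC and TRNI were called lower in the SCF response averaged over both guides, but not without sgEGR1 SCF replicate 3. TRNN (chrM:5657-5729, minus strand), which carries asparagine, was the member that had no counts. TRNC shared 1 base with its neighbour TRNY, and TRNI shared 3 bases with TRNQ on the opposite strand.
TRND: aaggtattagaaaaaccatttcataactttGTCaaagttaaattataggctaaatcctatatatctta
TRNP: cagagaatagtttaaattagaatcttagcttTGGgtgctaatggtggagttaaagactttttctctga
TRNC: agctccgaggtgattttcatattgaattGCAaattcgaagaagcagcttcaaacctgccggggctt
TRNI: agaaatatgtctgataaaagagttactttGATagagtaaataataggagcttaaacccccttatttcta
TRNN: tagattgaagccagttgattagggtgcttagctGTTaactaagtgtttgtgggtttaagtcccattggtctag

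Library totals ranged from 23498065 to 32039680 counts, and chi-square values per degree of freedom between replicates of a group ran from 4.36 to 20.5, so no library repeated another. Of 12 erythroid markers examined, 11 had counts in every library, with GATA1 at 271 to 327 and TFRC at 3270 to 3763 CPM (counts scaled to a common library size), and HBG1, a fetal globin that shares reads with its near copy HBG2, was at 0 in 1 library. Of 8 markers of other blood cells, MPO, CD3E, MS4A1 and PF4 were at 0, CD14, LYZ and CD79A had at most 14 counts in a library, and ITGA2B, an integrin of megakaryocytes and early progenitors, was at 12.01 to 35.16 CPM. EGR1 stood at 171 to 239 CPM in the sgControl SCF libraries and at 40.4 and 57.4 CPM in sgEGR1 SCF replicates 1 and 2. The library labelled sgEGR1 SCF replicate 3 had 204 CPM of EGR1, against its label, and many counts and called genes that rest on it are also given without it. Among those given only with it are the calls of nuclear RNAs without a poly(A) tail. The counts from DESeq2 and from models with a replicate block are also given only with it. Replicate 1 stood apart from replicates 2 and 3 in every group, as described with the replicates below.

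Mitochondrial genes took 8.23% to 10.7% of all counts, and their share was lower in each SCF library than in any PBS library. The share was 10.4%, 10.4% and 10.7% in the sgControl PBS libraries and 9.27%, 9.32% and 8.23% in the sgControl SCF libraries. It was 9.999%, 9.88% and 10.4% in sgEGR1 PBS and 9.04%, 9.70% and 9.21% in sgEGR1 SCF, so that the highest SCF library lay below the lowest PBS library. Wilson 95% confidence intervals of single libraries, which cover counting error only, were narrow, at 8.22% to 8.24% for the lowest share and 10.68% to 10.71% for the highest.

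The mean share fell from 10.5% ± 0.172 (SD, n = 3) to 8.94% ± 0.615 (SD, n = 3) in sgControl cells, a difference of -1.56 percentage points. In sgEGR1 cells it went from 10.1% ± 0.260 (SD, n = 3) to 9.32% ± 0.345 (SD, n = 3), a difference of -0.77 percentage points, or -0.72 without sgEGR1 SCF replicate 3. The mean of both responses was -1.16 percentage points. The sgControl SCF replicate 3 library had the lowest share, and without it the sgControl difference was -1.20 percentage points.

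In megacounts (counts with the metric prefix), the sum of mitochondrial counts was 2.78 ± 0.0934 megacounts (SD, n = 3) in sgControl PBS and 2.76 ± 0.153 megacounts (SD, n = 3) in sgControl SCF, whereas the sum of all other counts was 23.7 ± 0.683 megacounts (SD, n = 3) and 28.2 ± 0.869 megacounts (SD, n = 3). In sgEGR1 cells the mitochondrial sums were 2.68 ± 0.336 megacounts (SD, n = 3) after PBS and 2.78 ± 0.194 megacounts (SD, n = 3) after SCF, and the other counts 23.9 ± 2.51 and 27.0 ± 1.79 megacounts (SD, n = 3). Mean library totals were therefore larger after SCF. Totals also depend on how much of each library was sequenced, and no spike-in RNA was described. Less mitochondrial RNA per cell and more nuclear RNA per cell therefore cannot be told apart from these values. Nor do the totals show whether the number of cells changed. All fold changes below are relative to the whole library.

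**Figure D1:**
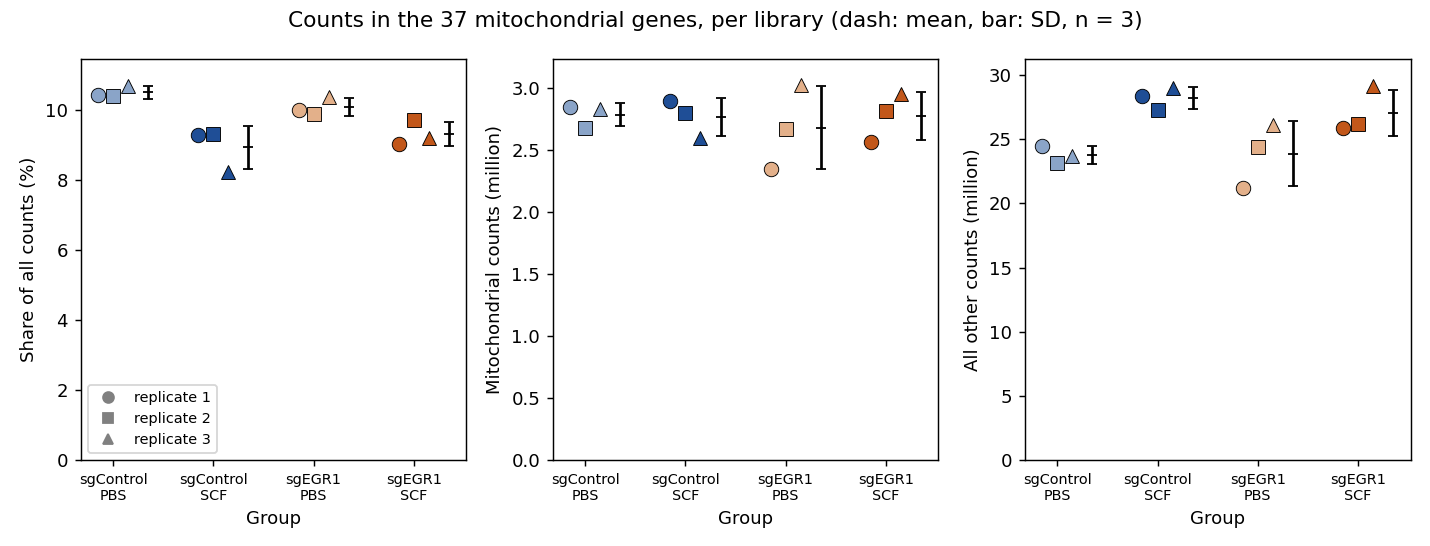
Share of all counts in the 37 mitochondrial genes (left, percent), counts in these genes (middle, megacounts) and counts in all other genes (right, megacounts) for each library, with replicates 1 to 3 as circles, squares and triangles and the mean and SD (n = 3) beside them. The 6 SCF libraries lie at 8.23% to 9.70% and the 6 PBS libraries at 9.88% to 10.7%, while the middle panel shows no such split.

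The 13 mRNAs held 86.8% of the mitochondrial counts, the 2 rRNAs 12.6% and the 22 tRNAs 0.626%. Per kilobase of gene, ATP8 had the highest level, at 19889 ± 2237 CPM per kb (SD, n = 12), and its range overlapped with that of no other member. COX3 (13113 ± 968), COX2 (11915 ± 978) and COX1 (9744 ± 694 CPM per kb, SD, n = 12) came next, the core subunits of cytochrome c oxidase, the enzyme that passes electrons to oxygen. The ranges of COX3 and COX2 overlapped over the 12 libraries, but COX3 was above COX2 within each of them. COX1 was above ND4 (9377 ± 978 CPM per kb, SD, n = 12) in 9 of 12 libraries.

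The complex I subunits ND4L (8716 ± 1050 CPM per kb), ND1 (5549 ± 425), ND5 (4867 ± 478), ND6 (4438 ± 484), ND3 (3498 ± 446) and ND2 (2288 ± 208 CPM per kb, SD, n = 12) were spread across the mRNA range. By the counts assigned to it, ND2 was the lowest mRNA in level per kb, and reads placed on its nuclear copy, described below, are not in this value. ATP6 stood at 8609 ± 732 CPM per kb and CYTB, the mitochondrial subunit of complex III, at 4721 ± 426 CPM per kb (SD, n = 12). ND1, ND5, CYTB and ND6 followed each other in the order with ranges over the 12 libraries that overlapped between neighbours. ATP8 and ATP6 lie on 1 RNA, and their levels per kb did not overlap, whereas those of ND4L and ND4, which also share an RNA, overlapped, with ND4 above ND4L within each of the 12 libraries. Reads placed on the nuclear copies of ATP6 and ND4, described below, are not in these values. The part of these copies and of the shared bases in the levels was not tested.

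RNR2, the large rRNA, reached 7378 ± 794 CPM per kb (SD, n = 12), and RNR1, the small rRNA, 777 ± 168 CPM per kb (SD, n = 12). RNR1 counts were 5.35% to 10.04% of RNR2 counts in single libraries. The rRNAs of a ribosome occur in equal numbers, and how the poly(A) selection of these libraries bears on the ratio was not tested. ND6 is the only mRNA of the light-strand transcript, and its counts were 2.62% to 3.08% of the sum of the 12 heavy-strand mRNAs. The study's methods describe the libraries as strand-specific, but whether the counting used strand is not given in the sources used here, so ND6 and other light-strand genes cannot be told apart from antisense RNA of the heavy-strand transcript.

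Among the tRNAs, TRNY (1512 ± 124), TRNC (1361 ± 104) and TRNP (1309 ± 143 CPM per kb, SD, n = 12) had the highest levels, and all 3 belong to the light-strand transcript. The 14 heavy-strand tRNAs had a median of 218 CPM per kb and the 8 light-strand tRNAs one of 391 CPM per kb, with wide overlap. The lowest levels were those of TRNA, at 19.7 CPM per kb, TRNK, at 11.9 CPM per kb, and TRNN. TRNN, whose sequence is printed above, had 0 counts in each of the 12 libraries, which allows up to 3 counts per library by counting error. It lies between TRNA and TRNC, and TRNC had 2189 to 2699 counts per library. TRNN was the 1 member that did not pass the filter on low counts, and 36 of 37 members were tested. How the poly(A) selection bears on the tRNA counts was not tested, and cut tRNAs and their precursors cannot be told apart in them.

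**Figure D2:**
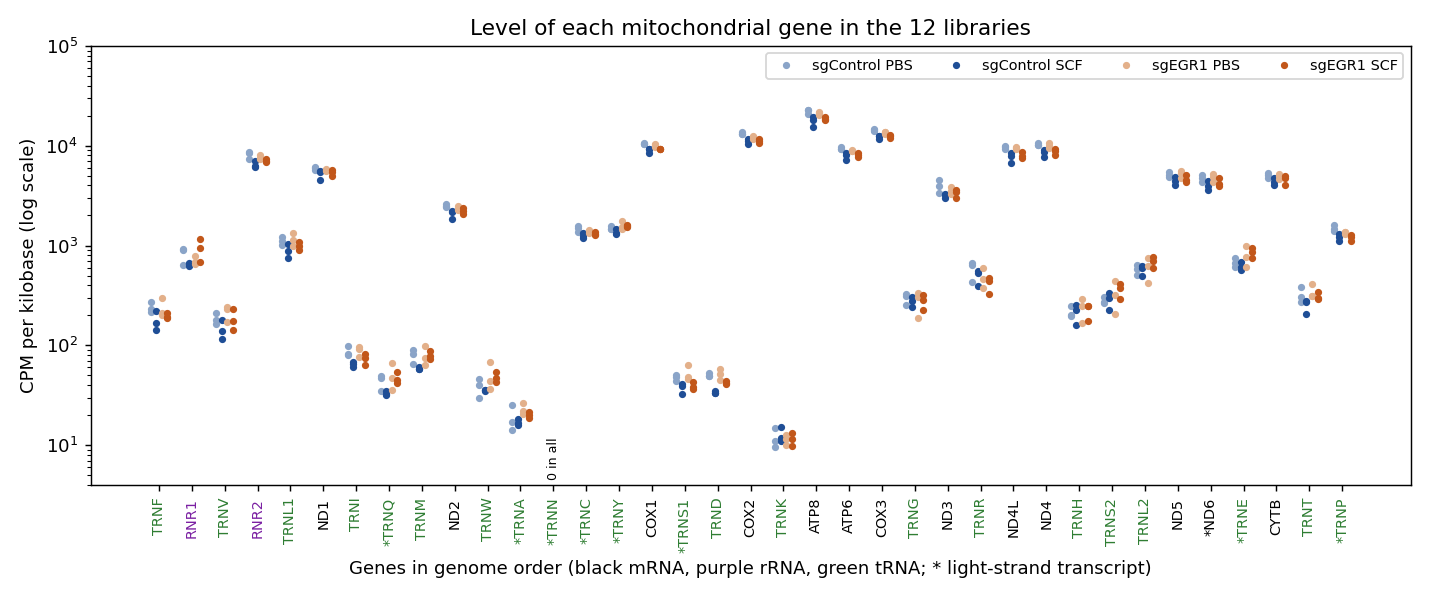
Level of each mitochondrial gene in CPM per kilobase (log axis) with the genes in genome order, one point per library coloured by group. The mRNAs and RNR2 lie at 1854 CPM per kb or higher in every library, RNR1 and the tRNAs lie lower, and TRNN is at 0 in all 12.

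Sequences in the nucleus that derive from mitochondrial DNA can take reads from the true genes or give them some. The table held 472 such copies, of which 336 had no counts and 9 had at least 1000 counts over the 12 libraries. MTATP6P1 (hg38 chr1:633696-634376) was 98.5% identical to a stretch of ATP6 that reaches into ATP8 and COX3. This stretch had 681 aligned bases with 10 mismatches, and MTATP6P1 averaged 1355 CPM. MTND2P28 (hg38 chr1:629640-630686) was 98.4% identical to ND2 over 1047 aligned bases and averaged 1295 CPM, against 1932 to 2718 CPM for ND2 in single libraries. MTND4P12 (hg38 chr5:134926661-134928036) was 95.8% identical to a stretch of ND4 that reaches into ND4L, over 1376 aligned bases, and averaged 601 CPM. All copies together amounted to 3.37% to 3.70% of the mitochondrial counts, and how the authors' aligner placed reads that fit both places is not given in the sources used here.

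In sgControl cells, SCF lowered transcripts from several stretches of the mitochondrial genome, the mRNAs called by 14.4% to 20.9%. The edgeR quasi-likelihood test called 9 of 36 members at an adjusted p under 0.05, all of them lower, against 0.775% of all tested genes called lower. These were COX1, COX2 and COX3 of cytochrome c oxidase, ATP6 and ATP8 of ATP synthase, ND4L of complex I, the large rRNA RNR2, and the tRNAs TRND and TRNP. Of the 36 members, 34 had a negative log2 fold change, and their median was -0.25 against -0.01 for all tested genes. At an unadjusted p under 0.05 edgeR counted 22 members, against 14.3% of tested genes. Each of the 13 mRNAs had a negative value, from -0.34 for ND4L to -0.20 for ND1.

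COX3 stood at 10939, 11207 and 11520.4 CPM in the 3 sgControl PBS libraries, 9798, 9729 and 9078 in sgControl SCF, 10875, 10163 and 10706 in sgEGR1 PBS and 9475, 10148 and 9729 in sgEGR1 SCF. The sgControl SCF libraries all lay below the sgControl PBS libraries, and the log2 fold change was -0.24 ± 0.0469 (SE, edgeR adjusted p = 0.0198). COX1 was at 16608, 16104 and 16023 CPM in the 3 sgControl PBS libraries, 14465, 14224 and 13041 in sgControl SCF, 16087, 15089.6 and 15669 in sgEGR1 PBS and 14163, 14452 and 14376 in sgEGR1 SCF, and in sgControl cells it fell by 14.4% (log2 fold change -0.22, edgeR adjusted p = 0.0234). COX2 was at 8886, 8899.5 and 9329 CPM in the 3 sgControl PBS libraries, 7998, 7632 and 7113 in sgControl SCF, 8401, 7944 and 8492 in sgEGR1 PBS and 7361, 8044 and 7695 in sgEGR1 SCF and fell by 16.1% in sgControl cells (log2 fold change -0.25, edgeR adjusted p = 0.0245). For each of these subunits every sgControl SCF library was below every sgControl PBS library.

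ATP8 was at 4697, 4291 and 4764 CPM in the 3 sgControl PBS libraries, 4036, 3768 and 3157 in sgControl SCF, 4392, 4222 and 4544 in sgEGR1 PBS and 3734, 3976 and 3822 in sgEGR1 SCF. ATP6, with which it shares the bases printed above, was at 6311, 6333 and 6641 CPM in the 3 sgControl PBS libraries, 5807, 5507 and 4874 in sgControl SCF, 6057, 6072 and 6117 in sgEGR1 PBS and 5275, 5809 and 5546 in sgEGR1 SCF. In sgControl cells ATP8 fell by 20.3% (edgeR adjusted p = 0.0453) and ATP6 by 16.1% (edgeR adjusted p = 0.0464), without overlap of the groups in either gene. ND4L stood at 2877, 2756 and 2977 CPM in the 3 sgControl PBS libraries, 2336, 2488 and 1985 in sgControl SCF, 2760.2, 2832 and 2916 in sgEGR1 PBS and 2263, 2542 and 2332 in sgEGR1 SCF and fell by 20.9% in sgControl cells (edgeR adjusted p = 0.0322). Its neighbour ND4 was at 13924, 13889 and 14696 CPM in the 3 sgControl PBS libraries, 11879, 12428 and 10534 in sgControl SCF, 13206, 13640.3 and 14764 in sgEGR1 PBS and 11121, 12856 and 12126 in sgEGR1 SCF, with a log2 fold change of -0.29 in sgControl cells (edgeR adjusted p = 0.0524).

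RNR2 was at 11500.5, 13254 and 13632 CPM in the 3 sgControl PBS libraries, 9688, 11021 and 9631 in sgControl SCF, 11696, 11579 and 12696 in sgEGR1 PBS and 10994, 11538 and 10795 in sgEGR1 SCF. In sgControl cells the SCF libraries lay below the PBS libraries, and RNR2 fell by 21.0% (log2 fold change -0.34 ± 0.0722, SE, edgeR adjusted p = 0.0278). TRNP, the proline tRNA beside the control region, was at 94.9, 99.9 and 109 CPM in the 3 sgControl PBS libraries, 82.1, 88.2 and 75.7 in sgControl SCF, 92.2, 92.4 and 89.7 in sgEGR1 PBS and 75.7, 86 and 82.6 in sgEGR1 SCF and fell by 19.1% in sgControl cells (edgeR adjusted p = 0.0354). TRND, a tRNA with few counts that lies between COX1 and COX2, fell by 33.1% in sgControl cells (edgeR adjusted p = 0.0434). It was at 3.32, 3.35 and 3.61 CPM in the 3 sgControl PBS libraries and 2.35, 2.27 and 2.26 in sgControl SCF. In sgEGR1 PBS it was at 3.07, 3.54 and 3.94 CPM and in sgEGR1 SCF at 2.76, 2.98 and 2.87. TRND had the most negative log2 fold change of the members tested in this comparison, -0.58 ± 0.135 (SE).

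The other mRNAs did not pass the adjusted threshold in sgControl cells. Their log2 fold changes were -0.27 for ND2, -0.32 for ND3, -0.22 for ND5, -0.25 for ND6, -0.20 for ND1 and -0.22 for CYTB, each with an unadjusted p under 0.05 in edgeR. In 20 of 36 members all SCF libraries lay below all PBS libraries, against 9.24% of tested genes, and in 0 members was the order the other way. The number of member calls in sgControl cells depended on single libraries, as did the 120 calls lower over all tested genes. It was 0 without sgControl PBS replicate 2, sgControl PBS replicate 3 or sgControl SCF replicate 3, where 53, 50 and 50 of all tested genes were called lower. There, 33, 31 and 35 of 36 members still had negative values. The number was 4 or 5 without sgControl SCF replicate 1, sgControl SCF replicate 2, sgEGR1 PBS replicate 2, sgEGR1 PBS replicate 3 or sgEGR1 SCF replicate 3, with 56 to 91 of all tested genes called lower. With DESeq2 it was 13, all lower, against 1.78% of genes with a DESeq2 adjusted p.

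**Figure D3:**
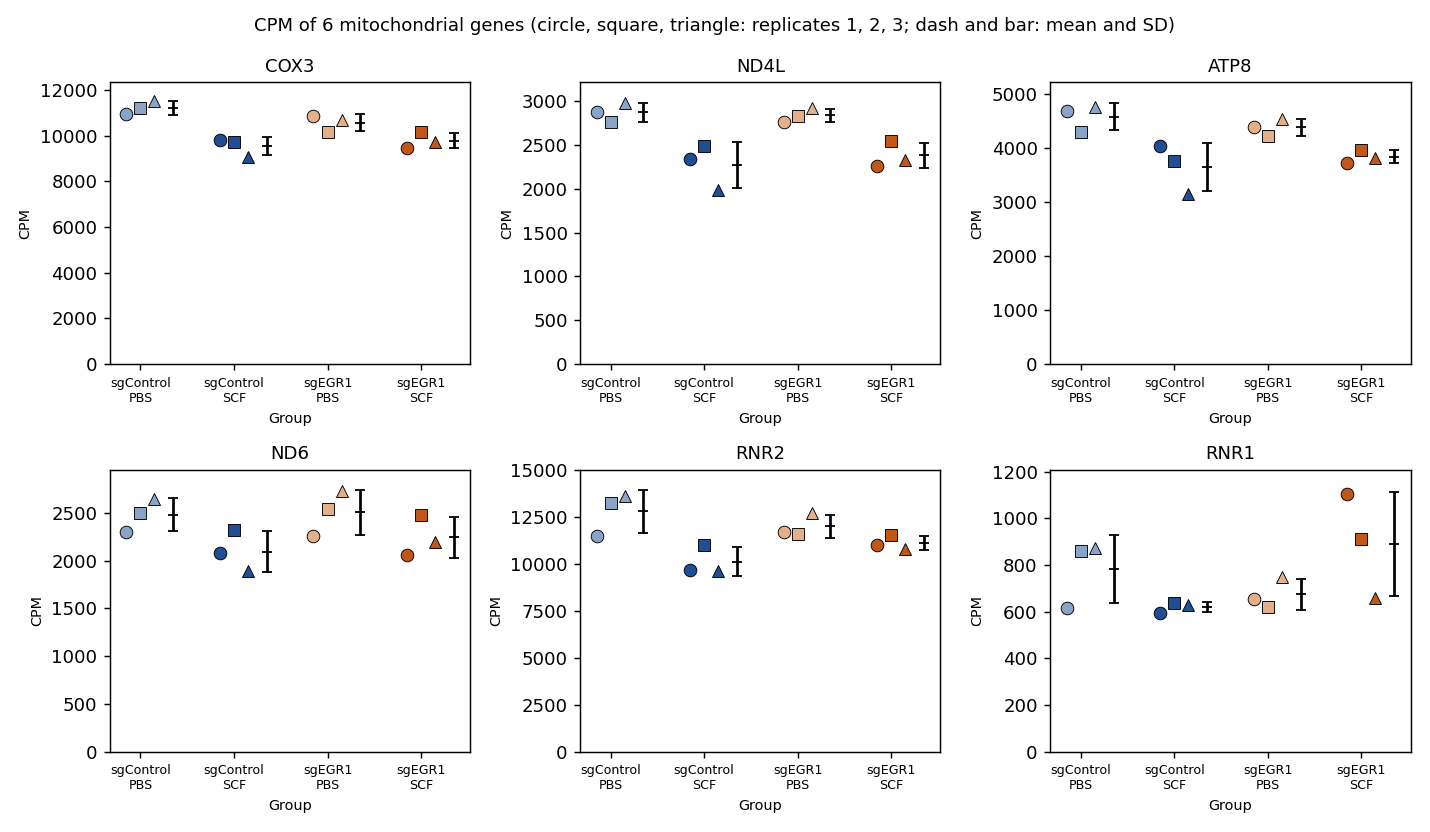
CPM of COX3, ND4L, ATP8, ND6, RNR2 and RNR1 in each library by group, with replicates 1 to 3 as circles, squares and triangles and the mean and SD (n = 3) beside them. For COX3, ND4L, ATP8 and RNR2 the sgControl SCF points lie below the sgControl PBS points, whereas RNR1 is highest in 2 of the sgEGR1 SCF libraries, at 1103 and 911 CPM.

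In sgEGR1 cells the mRNAs again had lower values after SCF, by smaller amounts, and edgeR called 0 of 36 members, against 2.59% of tested genes called in either direction. In 10 members (RNR2, COX1, TRNS1, TRND, ATP8, ATP6, COX3, ND4L, ND4 and TRNP) all SCF libraries lay below all PBS libraries, against 10% of tested genes. There were 11 without sgEGR1 SCF replicate 3, against 13.7% of tested genes. The median log2 fold change of the members was -0.11 against -0.000485 for all tested genes, and 29 of 36 were negative. At an unadjusted p under 0.05 edgeR counted 10 members, against 15% of tested genes (5 without sgEGR1 SCF replicate 3, against 12.4%, and 1 without sgEGR1 SCF replicate 1), and DESeq2 called 2 lower, ND4L and COX1, against 2.43% of genes. ND4L had the most negative log2 fold change of the mRNAs, -0.25 ± 0.0743 (SE, edgeR adjusted p = 0.106), and COX1 had -0.12 ± 0.0462 (SE, edgeR adjusted p = 0.213). Without sgEGR1 SCF replicate 3, ND4L had -0.24 and COX1 -0.13, and the number called by edgeR stayed at 0. Without sgControl SCF replicate 3 it was 1, ND4L, with 125 of all tested genes called lower.

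Averaged over both guides, SCF lowered 13 of 36 members and raised 0, against 3.45% of tested genes called lower and 5.58% called higher. The 12 erythroid markers also had a negative median, -0.14, though not each was lower: TFRC, HBG1 and HBG2 had higher mean CPM after SCF in sgControl cells. Called lower were SLC4A1, the anion exchanger of the red cell membrane (-0.26, edgeR adjusted p = 0.00856), and EPOR, the erythropoietin receptor (-0.14, edgeR adjusted p = 0.036). Their summed level was 13912 to 15669 CPM in sgControl PBS, 12985 to 14167 in sgControl SCF, 14270.0 to 15161 in sgEGR1 PBS and 12641 to 13205 CPM in sgEGR1 SCF. Without sgEGR1 SCF replicate 3, SLC4A1 had -0.22 (edgeR adjusted p = 0.0162) and EPOR -0.14 (edgeR adjusted p = 0.0601), and the part of these genes in the mitochondrial values was not tested. The 13 comprise the 9 members called in sgControl cells together with ND2, ND4, TRNC and TRNI. ND4L changed by -0.30 ± 0.0525 (SE, edgeR adjusted p = 0.00419), COX1 by -0.17 ± 0.0326 (SE, edgeR adjusted p = 0.00575), ND4 by -0.25 ± 0.0499 (SE, edgeR adjusted p = 0.00866) and RNR2 by -0.22 ± 0.051 on the log2 scale (SE, edgeR adjusted p = 0.0163). The cysteine tRNA TRNC fell by 10.5% and the isoleucine tRNA TRNI by 21.3%. The count ranged from 10 to 14 when single libraries were left out, while over all tested genes 534 called lower became 365 to 528. Without sgEGR1 SCF replicate 3 the member count was 10, with 386 of all tested genes called lower. ND2, TRNC and TRNI were then no longer called, and ND4L, COX1, ND4 and RNR2 had -0.29, -0.18, -0.25 and -0.21.

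By complex, the mean response called lower 3 of 7 complex I subunits (ND2, ND4 and ND4L), 3 of 3 cytochrome c oxidase subunits and 2 of 2 ATP synthase subunits. Of all tested genes 3.45% were called lower. CYTB of complex III had -0.16 (edgeR adjusted p = 0.113). The medians of complex I, cytochrome c oxidase and ATP synthase subunits on the log2 scale were -0.20, -0.17 and -0.23, against -0.00447 for all tested genes. Of the 21 tRNAs tested, 4 were called lower and 0 higher, against 3.45% and 5.58% of all tested genes, and 18 had negative values. Without sgEGR1 SCF replicate 3, ND2, TRNC and TRNI were not called, with 386 of all tested genes called lower. The tRNAs with positive values in the mean response were TRNK, TRNS2 and TRNL2, none of which was called. The ratio of rRNA to mRNA counts changed by -0.09 in sgControl and 0.06 in sgEGR1 cells on the log2 scale, and that of tRNA to mRNA counts by 0.04 and 0.07. The sgEGR1 values were 0.10 and 0.07 without sgEGR1 SCF replicate 3. ND6 moved with the heavy-strand mRNAs, their log2 ratio changing by 0.00312 in sgControl cells and -0.02 in sgEGR1 cells, or -0.00478 without sgEGR1 SCF replicate 3, where the SD within a group was 0.0645 to 0.114.

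**Figure D4:**
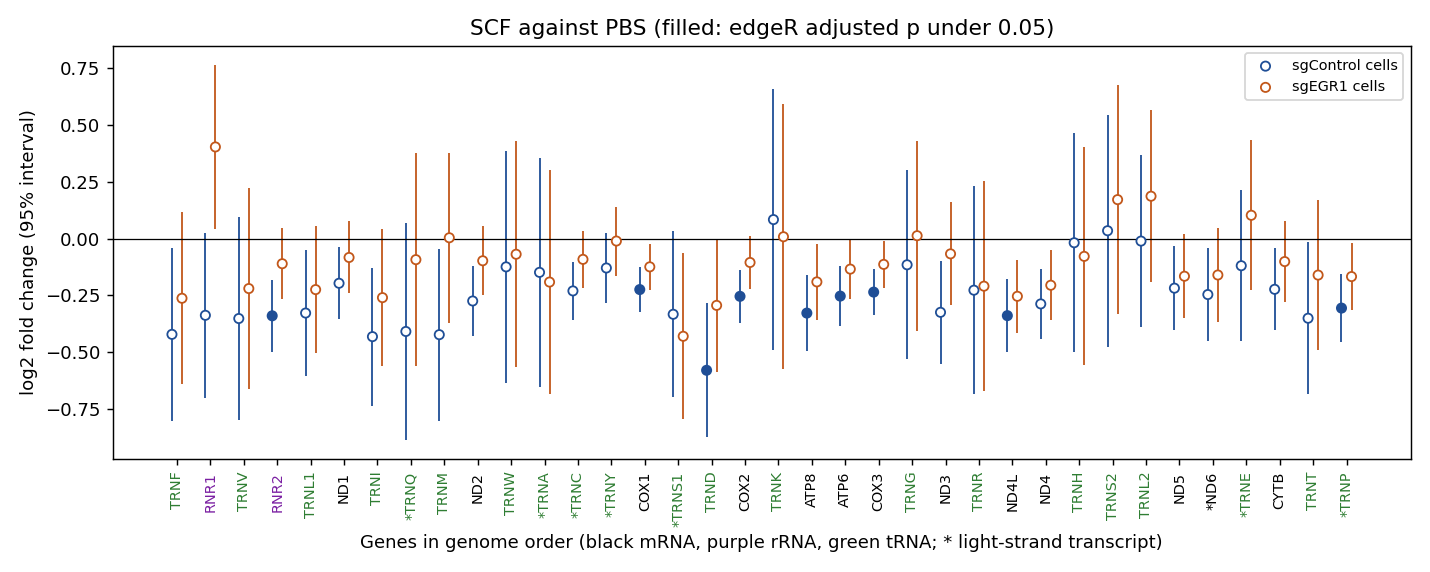
Log2 fold change of SCF against PBS with its 95% interval for the 36 tested members in genome order, in sgControl cells (blue) and sgEGR1 cells (orange), with filled points for an edgeR adjusted p under 0.05. All 13 mRNAs lie below 0 in both series, the 9 filled points are all in sgControl cells, and RNR1 is at -0.34 in sgControl and 0.40 in sgEGR1 cells.

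The small rRNA RNR1 had a positive log2 fold change after SCF in sgEGR1 cells, unlike the 13 mRNAs. It was at 615, 859 and 872 CPM in the 3 sgControl PBS libraries, 595, 635 and 627 in sgControl SCF, 655, 619 and 746 in sgEGR1 PBS and 1103, 911 and 659 in sgEGR1 SCF. The sgEGR1 SCF libraries all lay above the sgControl SCF libraries, and replicates 1 and 2 were the highest of the 12. The SCF response of RNR1 was -0.34 ± 0.166 in sgControl cells (SE, edgeR adjusted p = 0.391) and 0.40 ± 0.166 in sgEGR1 cells (SE, edgeR adjusted p = 0.269), and neither passed the threshold. The difference between the responses was 0.74 ± 0.235 on the log2 scale (SE, edgeR unadjusted p = 0.00832), which did not pass adjustment over all tested genes (edgeR adjusted p = 1.00).

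Leaving out sgEGR1 SCF replicate 3, the sgEGR1 response was 0.58 (edgeR adjusted p = 0.077) and this difference 0.92, and without sgEGR1 SCF replicate 1 it was 0.56. The difference of RNR1 between guides after SCF, 0.53, was 0.34 without sgEGR1 SCF replicate 1 and 0.70 without sgEGR1 SCF replicate 3. The summed level of 25 nuclear RNAs that carry no poly(A) tail moved in the same libraries. Of 16 tested, RNA28SN2 (2.16, edgeR adjusted p = 0.0199), a copy of the large cytoplasmic rRNA, was called higher after SCF in sgEGR1 cells, and RNA28SN2 and RNA28SN3 were called higher and RNA45SN2 lower in the mean response. These rRNA copies share reads. The summed level was 395, 854 and 697 CPM in sgControl PBS, 358, 457 and 445 in sgControl SCF, 478, 400 and 559 in sgEGR1 PBS and 753, 701 and 560 CPM in sgEGR1 SCF. The 4 libraries with the most of these RNAs were also the 4 with the most RNR1. Its part in the RNR1 values was not tested.

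Between guides, no member passed the adjusted threshold in edgeR or DESeq2. After PBS edgeR called 0 of 36 members, against 0.0% of tested genes, with 1 member (COX2, log2 difference -0.13) at an unadjusted p under 0.05, against 4.62% of tested genes. DESeq2 also called 0 members, against 0.0845% of genes. COX2, ATP6, COX3 and TRNP were lower in every sgEGR1 PBS library than in any sgControl PBS library, against 4.66% of tested genes. After SCF edgeR again called 0 of 36, against 0.0% of tested genes, with 6 members at an unadjusted p under 0.05, against 2.33% of tested genes, and DESeq2 called 0 members, against 0.0145% of genes. With a replicate block in the model, 13 members reached an unadjusted p under 0.05 after SCF, against 5.65% of tested genes. After PBS there were 4, against 10.2%, with 0 members called in either. Of the 13, 12 were higher in sgEGR1 cells and TRNR lower. Without sgEGR1 SCF replicate 3 and without the block there were 4 after SCF (RNR1, TRNE, TRNV and TRNY), against 3.44% of tested genes. All 6 members counted without the block in the full set were higher in sgEGR1 cells, RNR1 by 0.53, TRNQ by 0.50, TRNE by 0.46, TRNM by 0.43, TRND by 0.33 and TRNY by 0.20 on the log2 scale.

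In 9 members (RNR1, TRNQ, TRNM, TRNW, TRNA, TRNY, TRND, TRNE and TRNT) every sgEGR1 SCF library lay above every sgControl SCF library, against 3.61% of tested genes, and 8 of the 9 are tRNAs. There were 10 without sgEGR1 SCF replicate 3, those 9 with TRNI, against 8.35% of tested genes. TRNQ, TRNW, TRND and TRNA had 27 to 137 counts in a library. The glutamate tRNA TRNE was at 41.9, 47.5 and 39.6 CPM in sgControl SCF and 51.4, 65.6 and 60 CPM in sgEGR1 SCF. The differences between guides in the SCF response reached 0 calls in edgeR, against 0.0% of tested genes, and 0 member calls in DESeq2, against 0.018% of genes, with 32 of 36 members positive and a median of 0.13. At an unadjusted p under 0.05 the rRNAs RNR1 and RNR2 were the members counted, against 1.98% of tested genes, as they were without sgEGR1 SCF replicate 3 (RNR2 0.25, against 0.23 with it). With the block 3 were counted, against 3.86%. Averaged over treatments, edgeR and DESeq2 called 0 members for the guide, against 0.0% and 0.16% of genes, and 4 tRNAs (TRNE, TRNY, TRNW and TRNQ, all higher in sgEGR1 cells) had an unadjusted p under 0.05, against 5.2% of tested genes. There were 5 without sgEGR1 SCF replicate 3, against 6.33%, and 9 with the block, against 11.8%, the lowest adjusted p in edgeR being 0.0544. The responses of sgEGR1 and sgControl cells were therefore not shown to differ.

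Replicate 1 differed from replicates 2 and 3 at members as it did across the genome, where 26.6% of tested genes were called. Of 36 members 12 were called, 4 higher and 8 lower in replicate 1, and 10 of them were tRNAs. The 12 became 9 to 16 when 1 library was left out, while 4116 calls over all tested genes became 2883 to 3953. Without sgEGR1 SCF replicate 3 there were 11, CYTB not among them, with 3809 calls over all tested genes. CYTB was called under 8 of 16 alternatives, and neither TRNE nor CYTB was called without sgControl PBS replicate 1. The tRNAs TRNF, TRNV and TRNL1, which flank the rRNA genes, were higher, with log2 fold changes of 0.37, 0.38 and 0.27, as was TRNT with 0.30. Lower were TRNG, TRNR, TRNH, TRNS2 and TRNL2, which lie together between COX3 and ND5, with log2 fold changes of -0.44, -0.52, -0.48, -0.48 and -0.38, and with them TRNE (-0.27), ND3 (-0.21) and CYTB (-0.13). TRNR, the arginine tRNA between ND3 and ND4L, was at 28.1, 41.4 and 43.4 CPM in the 3 sgControl PBS libraries, 25.3, 36.3 and 34.9 in sgControl SCF, 24.6, 38.8 and 29.9 in sgEGR1 PBS and 21.2, 30.9 and 28.7 in sgEGR1 SCF. In each group replicate 1 had the lowest TRNR value (edgeR adjusted p = 4.74e-05). Of the 76 nuclear-encoded subunits tested, 36 were called lower and 0 higher in replicate 1, as were 8 and 0 of 18 factors of mitochondrial RNA processing and decay. Among the latter LRPPRC, which stabilises mitochondrial mRNAs, had a log2 fold change of -0.23 (edgeR adjusted p = 3.08e-05).

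**Figure D5:**
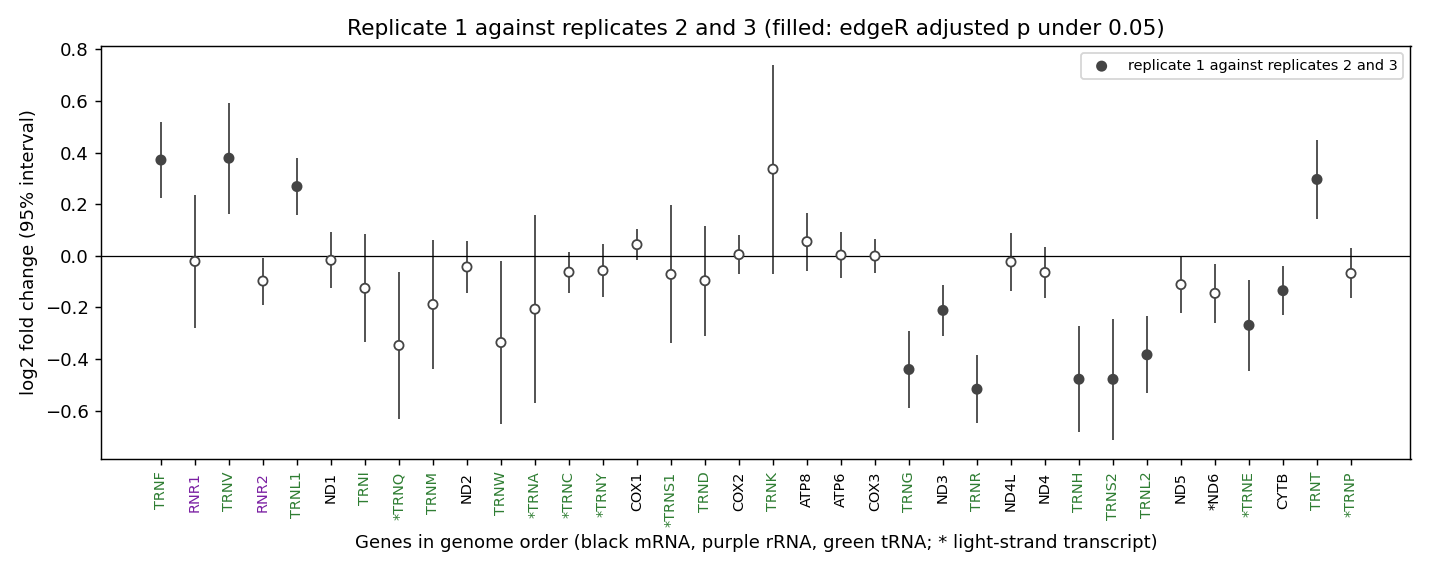
Log2 fold change of replicate 1 against replicates 2 and 3 over all 4 groups, with its 95% interval, for the 36 tested members in genome order, with filled points for an edgeR adjusted p under 0.05. The filled tRNAs beside the rRNA genes lie above 0 and those between COX3 and ND5 lie below 0, down to -0.52 for TRNR.

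Nuclear genes that build the same complexes were not called with the mitochondrial ones. Of 76 nuclear-encoded subunits of the respiratory chain and ATP synthase tested, edgeR called 0 after SCF in either guide, and their median log2 fold change was -0.02 in sgControl and 0.06 in sgEGR1 cells. At an unadjusted p under 0.05 edgeR counted 4 in each guide, or 5.26%, against 14.3% and 15% of all tested genes, and DESeq2 called 0. Of 74 mitochondrial ribosomal proteins edgeR called 0 in sgControl cells, with 5 at an unadjusted p under 0.05 and 0 called by DESeq2, and 1 in sgEGR1 cells, MRPL17 (0.38, edgeR adjusted p = 0.0261), with 13 at an unadjusted p under 0.05. These were 6.76% and 17.6% of the list, and the second became 3, or 4.05%, without sgEGR1 SCF replicate 3, where MRPL17 had 0.38 (edgeR adjusted p = 0.0846). In the mean response 16 had an unadjusted p under 0.05, or 21.6%, against 22.7% of all tested genes, and MRPL17 was called higher (0.30) and MRPL10 (-0.14) and MRPL53 (-0.16) lower, MRPL53 not without that library. Among 15 factors of mitochondrial DNA transcription and replication, the DNA helicase TWNK rose by 0.55 ± 0.0801 (SE, edgeR adjusted p = 0.00322) in sgControl and 0.52 ± 0.0802 (SE, edgeR adjusted p = 0.00475) in sgEGR1 cells, or 0.45 without sgEGR1 SCF replicate 3 (edgeR adjusted p = 0.0274). The transcription terminator relative MTERF2 had -0.25 in the mean response (edgeR adjusted p = 0.0381), or -0.24 without that library (edgeR adjusted p = 0.0849).

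Of 18 factors of mitochondrial RNA processing and decay, 2 were called in sgControl cells, 1 in sgEGR1 cells and 3 in the mean response, all higher, against 2.12%, 1.81% and 5.58% of all tested genes called higher. PDE12, an enzyme that removes poly(A) tails from mitochondrial RNAs, rose by 0.31 in sgControl (edgeR adjusted p = 0.017) and 0.36 in sgEGR1 cells (edgeR adjusted p = 0.00672), and TBRG4, an RNA-binding protein of mitochondria, had 0.25 in sgControl cells (edgeR adjusted p = 0.037). The third in the mean response was FASTKD2, a protein of the same family (0.20, edgeR adjusted p = 0.034). Without sgEGR1 SCF replicate 3, PDE12 had 0.32 in sgEGR1 cells (edgeR adjusted p = 0.0358), TBRG4 an adjusted p of 0.054 in sgControl cells in edgeR, and FASTKD2 0.17 in the mean response (edgeR adjusted p = 0.086). MARS2, the mitochondrial methionyl-tRNA synthetase and 1 of 19 synthetases tested, rose by 0.64 in sgControl (edgeR adjusted p = 0.0262) and 0.94 in sgEGR1 cells (edgeR adjusted p = 0.00295), or 0.92 without sgEGR1 SCF replicate 3 (edgeR adjusted p = 0.0162). PPRC1, a coactivator of genes for mitochondrial proteins and 1 of 7 biogenesis regulators tested, rose from 34.7 to 61.8 CPM in sgControl and from 34.9 to 57.7 CPM in sgEGR1 cells, with edgeR adjusted p = 0.000228 and 0.000555, the second being 0.00404 without sgEGR1 SCF replicate 3.

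The nuclear copies of mitochondrial sequence had medians close to those of the members, -0.26 in sgControl and -0.17 in sgEGR1 cells over the 26 tested. MTND4P12, the ND4 copy, fell by 0.33 on the log2 scale in sgControl cells (edgeR adjusted p = 0.0171). In the mean response MTND4P12, MTCO1P12, MTATP6P1 and MTND2P28 fell by 0.28, 0.25, 0.22 and 0.21, and without sgEGR1 SCF replicate 3 MTND4P12 alone of these was called. Reads of the true genes placed on the copies and RNA made from the copies cannot be told apart in these counts.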

How the data were processed

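Polyadenylated RNA of 12 HUDEP-2 cultures, in 4 groups of 3 that the methods call biological replicates, was sequenced in paired ends. The labels and the study's methods name different library kits, and the methods call the libraries strand-specific. The authors aligned reads to hg38 with HISAT and deposited 1 table of estimated counts per gene made with StringTie, all of which were whole numbers. The release of the annotation, the handling of multiply placed reads and the use of strand in counting are not given in the sources used here. Submitters' processing notes list bcl2fastq, HISAT2 and SAMtools. Column names were matched to the labels by their words: SCR stood for sgControl, NoSCF for PBS, and SG2 was taken as sgEGR1, the only other construct. There were 0 columns of other samples and 0 rows that name no gene.

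Genes with low counts were removed with filterByExpr, and 15492 genes were fitted with edgeR 4.0.16 (quasi-likelihood, TMM scaling, Benjamini-Hochberg adjustment over all of them, R 4.3.3) in 1 model of the 4 groups, with a term for replicate 1 in the comparison of replicates. The study itself used DESeq2, which was an alternative here (version 1.42.0). Levels are CPM with TMM scaling, divided by gene length where given per kb. The script was tested on simulated data. Sums, shares and ratios over members are given without p-values. Members and lists were chosen with earlier results of these data known. All mRNAs and rRNAs are named, and tRNAs where called, among the 3 highest or 3 lowest levels, or without overlap between groups. The last of these was added after the values were seen. Of the nuclear lists only called genes are named, at most 3 a direction in a comparison, except for a count of 4 nuclear copies. Their calls in the comparison of replicates are given as counts with 1 example.

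Between guides, same-numbered libraries had residual correlations of 0.232, 0.103 and 0.119 after PBS and 0.269, 0.102 and 0.126 after SCF. Libraries with different numbers were not compared, so these values cannot show whether replicate numbers pair the guides. Gene positions and printed sequences are from hg38 with RefSeq and GENCODE annotation. Counts of SCF against PBS in each guide share no libraries, but comparisons of guides and of treatments do.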

Additional observations from a re-analysis of the deposited data

Results flagged for a closer look

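The response of 2 members to SCF differed between guides at an unadjusted p under 0.05 in the interaction term of edgeR. The response of RNR1 in sgEGR1 cells exceeded that in sgControl cells by 0.74 on the log2 scale (unadjusted p = 0.00832), and that of RNR2 by 0.23 (unadjusted p = 0.0442). Without sgEGR1 SCF replicate 3 these values were 0.92 and 0.25. Neither passed adjustment over all tested genes (edgeR adjusted p = 1.00 for both), and 1.98% of tested genes had an unadjusted p under 0.05 in this comparison. RNR1 was higher after SCF in sgEGR1 replicates 1 and 2 than in any sgEGR1 PBS library, while sgEGR1 SCF replicate 3, at 659 CPM, lay within the sgEGR1 PBS range of 619 to 746 CPM.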

How the results depend on the processing

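The 9 members called lower after SCF in sgControl cells became 2 with no filter on low counts, 16 with a replicate block and 17 with a replicate 1 term, and 0 to 8 when 1 library was left out. Over all tested genes, the 120 called lower became 64, 428 and 471 in the same settings, and 50 to 119 when 1 library was left out. In sgEGR1 cells the count of 0 became 2 with DESeq2, 1 with the replicate block and 1 with the replicate 1 term, and 0 to 1 when 1 library was left out. Over all tested genes, 122 called lower there became 294, 505 and 545, and 43 to 134 when 1 library was left out. The 13 of the mean response became 22 with the replicate block and 23 with the replicate 1 term, while over all tested genes 534 called lower became 1257 and 1284. Between PBS and SCF, same-numbered libraries had residual correlations of 0.272, 0.00766 and 0.108 in sgControl and 0.23, 0.0749 and 0.062 in sgEGR1 cells. Libraries with different numbers were not compared, so the block is not taken as a pairing in any comparison. In comparisons of guides the block changed no member call, but moved the number of members at an unadjusted p under 0.05 from 6 to 13 after SCF, 1 to 4 after PBS and 4 to 9 over both treatments. Over all tested genes these numbers went from 361 to 875, 715 to 1585 and 805 to 1821. COX1, COX2, COX3, ATP6, ATP8, ND4, ND4L, RNR2, TRND and TRNP were called in the mean response under each of the 19 alternatives. With replicates 2 and 3 only, the difference between guides after SCF in log2 rRNA per mRNA counts went from 0.11 to 0.00955, and the difference between guides in the response of log2 tRNA per mRNA counts from 0.0324 to -0.0289. RNR1 in the mean response went from 0.03 to -0.13 with replicates 2 and 3 only and ranged from -0.0582 to 0.122 when 1 library was left out. ND3 in sgEGR1 cells ranged from -0.121 to 0.00907 when 1 library was left out. The cause was not tested in any of these cases. TRNK, TRNA, TRND, TRNS1, TRNW, TRNQ, TRNI and TRNM had 17 to 194 counts in a library, which limits what these libraries can show of them.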
